A study of Mus musculus with 21 samples.

Results

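Of 7398 places in the mouse liver genome where the glucocorticoid receptor (GR) was called in at least 1 library, 6 lay nearest to Parva, Tead1 or Stk4. They were found by merging overlapping peaks of the 18 receptor peak lists into sites and keeping each site whose nearest protein-coding gene span, measured from the site's centre and within 50 kb, was 1 of these 3 genes. This gave 3 sites for Parva, 2 for Tead1 and 1 for Stk4, and no further site had 1 of the genes as its nearest at a longer distance. The 3 genes were chosen by the normalized tags of their leading sites in the dexamethasone libraries, hypoxia against normoxia, in these same data, so the values of that contrast are described here and not tested.

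Livers came from C57BL/6J mice and were snap-frozen, and the receptor was pulled down with the H300 antibody (chromatin immunoprecipitation with sequencing, ChIP-seq). The groups given dexamethasone (DEX, a synthetic glucocorticoid that activates the receptor, 10 mg/kg) were kept at normal oxygen (normoxia), or at 7% oxygen for 6 h or for 24 h before injection. The groups given phosphate-buffered saline (PBS) had the same 3 oxygen histories, and all mice were sampled 2 h after injection. Each of the 6 groups had 3 libraries, which the design text calls biological replicates. Whole liver was used, so fewer cells with an occupied site and less occupancy per cell cannot be told apart. Age and sex of the mice were not given in the sources used here.

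Parva encodes alpha-parvin, an actin-binding protein that joins integrin-linked kinase and a PINCH protein at cell-matrix adhesions. Tead1 encodes a DNA-binding partner of the coactivators YAP and TAZ, the output of the Hippo pathway. Stk4 encodes the kinase MST1, which acts near the top of that pathway and, through the LATS kinases, restrains YAP and TAZ. The glucocorticoid receptor itself is a hormone-activated transcription factor that, in liver, binds mostly away from promoters.

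The DEX libraries held 5772670 to 13181686 tags each and the PBS libraries 8667179 to 43645787. A called peak needed 50 tags whatever the depth. That minimum stood for 37.9 to 86.6 normalized tags (per 10000000 tags of a library) with DEX and for 11.5 to 57.7 with PBS. Normoxia PBS replicate 1 stood apart, with 43645787 tags, peaks of 280 bp against 178 to 196 bp elsewhere, a cap of 2 tags per base against 1 elsewhere, and the lowest minimum, so its tag values are on a different footing. The share of tags in peaks was 2.85 to 3.68% in normoxia, 1.93 to 3.15% after 6 h and 1.38 to 2.76% after 24 h of hypoxia with DEX, and 0.15 to 1.23% with PBS. Of the marker lists, 5 of 8 tested sites near hepatocyte genes and 3 of 4 near endothelial genes were called more often with DEX, against 1418 of all 2563 sites tested (55.3%), while Kupffer cell, leukocyte, stellate cell and cholangiocyte genes had no site that could be tested.

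The leading Parva site lay inside the gene, at chr7:112469938-112470194 (mm10), 42360 bp from the start of the 163983 bp span. It was called in all 9 DEX libraries, and the centres of its 12 peaks fell within 67 bp of each other. With DEX it carried 108.5, 68.7 and 86.7 normalized tags in normoxia, 222.9, 344.7 and 159.9 after 6 h, and 159.0, 214.7 and 255.5 after 24 h of hypoxia. All 6 hypoxia values lay above all 3 normoxia values. Group means were 88.0 ± 19.9 in normoxia, 243 ± 94.0 at 6 h and 210 ± 48.4 at 24 h of hypoxia (SD over 3 libraries).

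A second Parva site, at chr7:112634901-112635119, lay between the genes, 43322 bp beyond the Parva span and 44346 bp before Tead1. With DEX it was called in 1 of 3 normoxia libraries at 47.2 normalized tags. After 6 h it was called in all 3 libraries, at 80.4, 149.0 and 79.0 tags, and after 24 h in 2 of 3, at 63.2 and 74.4 tags. The 5 hypoxia values all exceeded the single normoxia value. Library minimums of 37.9 and 47.7 tags applied where normoxia gave no peak, and 56.5 in the 24 h library without one, so this comparison rests on called peaks alone. The value of 149.0 came from 6 h DEX replicate 2, the library with the fewest tags (5772670). Its median over its own sites was 154.2 normalized tags, against 79.5 and 88.5 in the other 6 h DEX libraries. The part of this in its value was not tested.

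The leading Tead1 site, at chr7:112644717-112644950, lay outside the gene, 34522 bp from the span on the side facing Parva. It was called in all 9 DEX libraries. It carried 91.0, 65.9 and 69.7 normalized tags in normoxia, 114.5, 176.7 and 83.7 after 6 h, and 81.2, 105.1 and 147.1 after 24 h of hypoxia. On this scale the groups overlapped, since 83.7 and 81.2 in hypoxia lay below the highest normoxia value. Group means were 75.5 ± 13.5 in normoxia, 125 ± 47.4 at 6 h and 111 ± 33.4 at 24 h of hypoxia (SD over 3 libraries).

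The single Stk4 site, at chr2:164131477-164131704, lay inside the gene, 57477 bp into its 81412 bp span. It too was called in all 9 DEX libraries, and here the order was the opposite. It carried 170.7, 186.1 and 298.0 normalized tags in normoxia, 118.9, 164.6 and 97.1 after 6 h, and 53.0, 71.2 and 55.4 after 24 h of hypoxia. The 3 oxygen conditions did not overlap: every 24 h value was below every 6 h value, and every 6 h value was below every normoxia value. Group means were 218 ± 69.5 in normoxia, 127 ± 34.5 at 6 h and 59.9 ± 9.89 at 24 h of hypoxia (SD over 3 libraries).

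**Figure D1:**
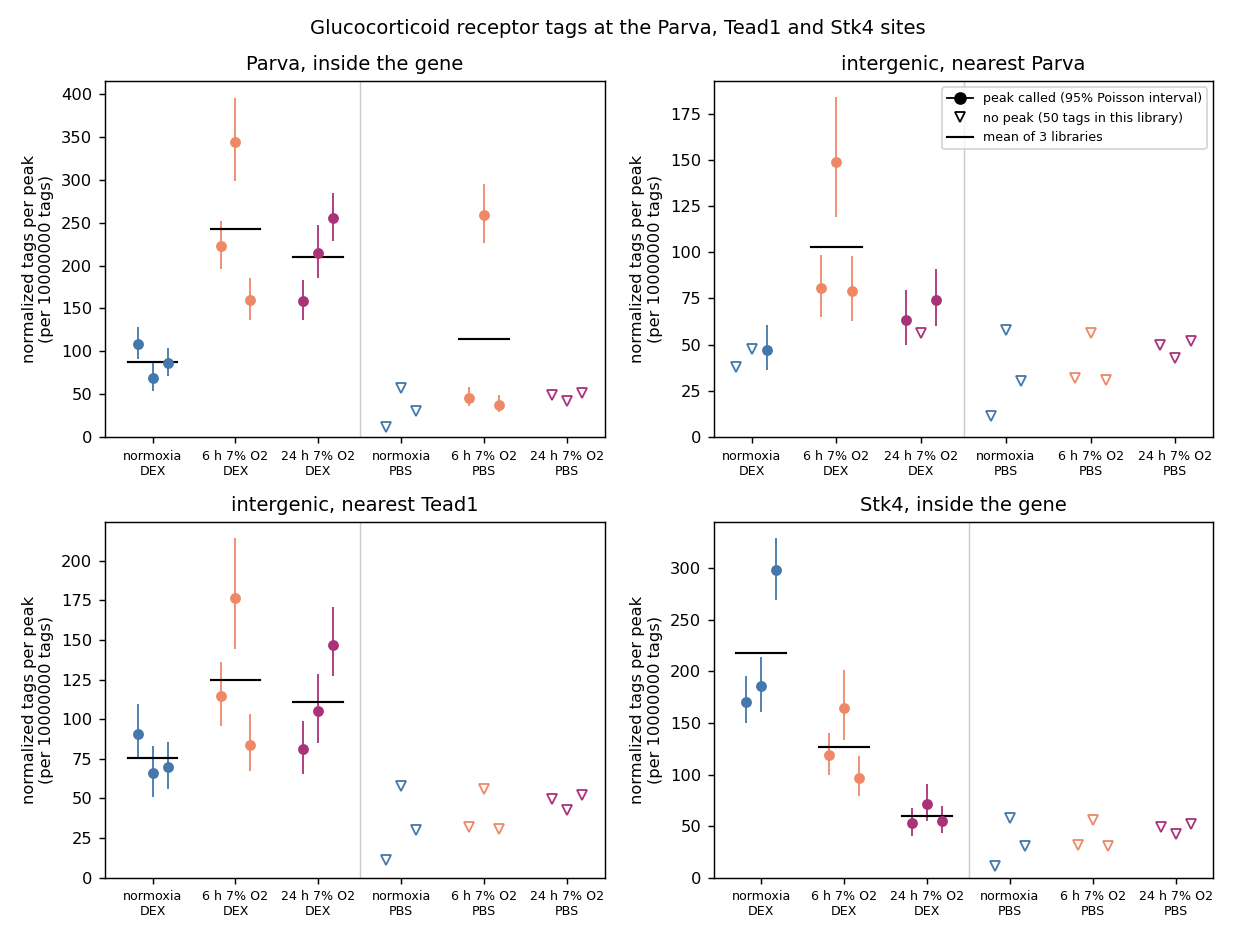
Normalized tags (per 10000000 tags) at the 4 sites called in 3 or more libraries, by group, with 1 mark per library. Filled points are called peaks with a 95% Poisson interval (counting error only), open triangles mark what 50 tags stand for in a library without a peak, and black bars are means where all 3 libraries have a peak. With DEX the Parva, intergenic and Tead1 sites were mostly higher in hypoxia and the Stk4 site was lower.

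The other 2 sites were each called in normoxia PBS replicate 1 alone. They were chr7:112450104-112450384 inside Parva, at 14.2 normalized tags, and chr7:112826171-112826451 inside Tead1, at 12.8 tags. Both values were below the minimum that any of the other 17 libraries could have called. Of all 7398 sites, 4369 were called in only 1 library.

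Without DEX, the leading Parva site was the only 1 of the 4 recurrent sites that was called at all. All 3 PBS libraries after 6 h of hypoxia had a peak there, at 46.0, 259.1 and 37.8 normalized tags, and none of the 6 PBS libraries of normoxia and 24 h did. That pattern was seen at 12 of 4418 sites called in any PBS library (0.272%) and at 12 of the 200 called in all 3 of these 6 h libraries (6%). The minimum for a peak was 57.7 normalized tags in normoxia PBS replicate 2 and 42.6 to 51.9 in the 24 h PBS libraries. A site at 37.8 tags could not have been called in any of these, so their missing peaks say little. Normoxia PBS replicates 1 and 3, with minimums of 11.5 and 30.3, could have called it. Grouping both hypoxia times, 3 of 6 hypoxia PBS libraries and 0 of 3 normoxia PBS libraries held the peak, a share difference of 0.5 that did not pass (Fisher's exact test, two-sided, p = 0.464, adjusted p = 1). No site of 632 tested passed that comparison (0%), 3 had an unadjusted Fisher p under 0.05, and the smallest exact p that 6 against 3 libraries allow is 0.0119. At 6 h the DEX values overlapped the PBS values through PBS replicate 2. That PBS library also had 1.23% of its tags in peaks, against 0.24% and 0.62% in the other 6 h PBS libraries, and the part of this in its value was not tested.

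The Tead1 and Stk4 sites had no peak in any of the 9 PBS libraries. Of the 935 sites called in all 9 DEX libraries, 209 (22.4%) were likewise called in 0 of 9 PBS libraries and 682 (72.9%) in at most 3, as the Parva site was. The DEX side of these 3 sites was fixed when they were chosen, so no test is given for them. All 9 DEX values of the Parva and Tead1 sites lay above 57.7 normalized tags, the highest minimum of any PBS library, and 7 of 9 did at the Stk4 site. The exceptions at Stk4 were the 24 h values of 53.0 and 55.4. The intergenic Parva site was called in 6 of 9 DEX and 0 of 9 PBS libraries, a share difference of 0.667 that passed the exact Cochran-Mantel-Haenszel test within oxygen conditions (two-sided, p = 0.01, Benjamini-Hochberg adjusted p = 0.0216). The site entered that test through DEX peaks alone, so the pass by itself says little about it. The call was lost when sites were not filtered on detection (exact test, adjusted p = 0.0622). Calls more often with DEX were made at 1418 of 2563 sites tested (55.3%) and less often at 1 (0.039%), so most sites tested shared this result. None of the 6 sites was among the 62 called in all 18 libraries, of which 60 (96.8%) had more tags with DEX by limma, so levels were not tested between DEX and PBS.

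To set the sites against the rest, log2 tags of the 935 sites were centred on each library's median and fitted with limma. The Parva site was higher in hypoxia than in normoxia with DEX by 1.48 ± 0.14 on the log2 scale (SE), or 2.80-fold. The Tead1 site was higher by 0.75 ± 0.15, or 1.68-fold. The Stk4 site had 0.45 times its normoxia level, a log2 difference of -1.15 ± 0.20. The median over all 935 sites was 0.05. These were the 2nd and 8th largest rises and the 3rd largest fall. Over all sites 29 (3.1%) passed as higher and 20 (2.14%) as lower in hypoxia, and since the 3 sites were taken from among them nothing is read from that. Without centring 2 of the 935 sites passed as higher and 7 as lower, and the Tead1 difference was 0.60 ± 0.30 (SE), a wider spread than with centring. It was 0.65 ± 0.17 without normoxia DEX replicate 2.

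Each time had its own difference from the shared normoxia libraries. After 6 h the log2 differences were 1.43 ± 0.17 at Parva, 0.69 ± 0.17 at Tead1 and -0.76 ± 0.23 at Stk4. After 24 h they were 1.54 ± 0.17 at Parva, 0.82 ± 0.17 at Tead1 and -1.55 ± 0.23 at Stk4 (SE). In normalized tags without centring, 5 of 935 sites (0.535%), Parva among them, had all 6 hypoxia libraries above all 3 normoxia libraries, and 16 (1.71%), Stk4 among them, had all 6 below. On the centred scale Tead1 also did not overlap, as did 47 sites (5.03%) in that direction, and 30 (3.21%) did not overlap in the direction of Stk4. With the share of tags in peaks as a covariate, the differences of both hypoxia times from normoxia were 1.62 at Parva, 0.91 at Tead1 and -1.43 at Stk4.

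Whether the sites went on changing between 6 h and 24 h was not used in choosing them and could be tested. The Stk4 site had 0.58 times the tags at 24 h that it had at 6 h, a log2 difference of -0.79 ± 0.23 (SE; 95% interval -1.28 to -0.30). It did not pass over all sites (limma, unadjusted p = 0.00356, adjusted p = 0.0956). Of the 935 sites, 13 (1.39%) passed as lower and 4 (0.428%) as higher. All 3 values at 24 h lay below all 3 at 6 h, as at 12.1% of sites on the normalized scale and 11.4% on the centred scale. The limma adjusted p was 0.0405 with the share of tags in peaks as a covariate and 0.0141 without normoxia DEX replicate 3, whose Stk4 value of 298.0 was the highest. Over the other alternatives in which the site was fitted it was 0.0509 to 0.338. The Parva and Tead1 sites did not pass either, with log2 differences of 0.11 (95% interval -0.25 to 0.46, limma adjusted p = 0.77) and 0.13 (-0.24 to 0.50, adjusted p = 0.749). Both turned negative without centring, at -0.17 and -0.14. These intervals leave room for changes of either sign.

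**Figure D2:**
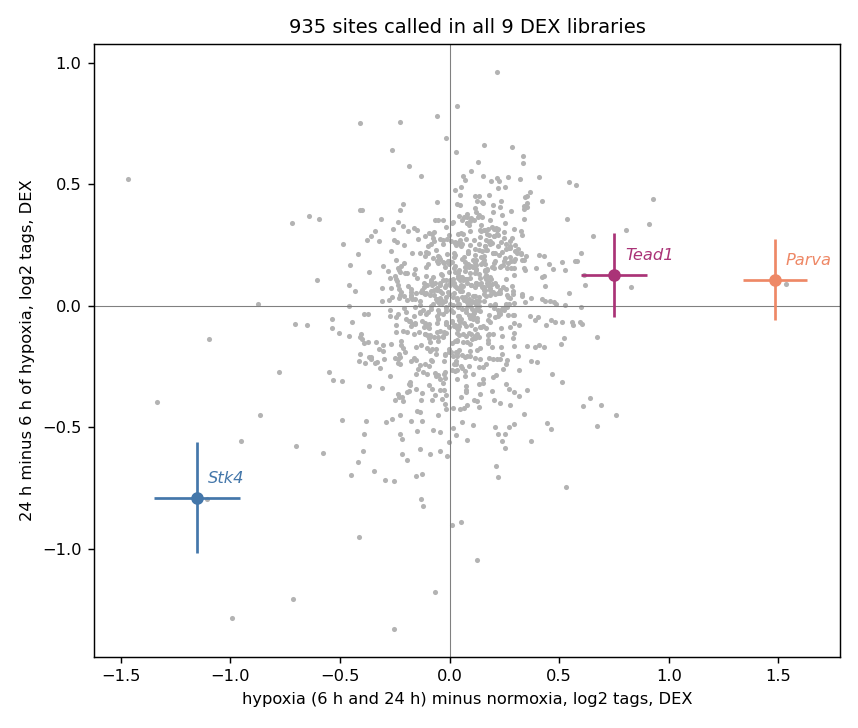
Log2 differences in normalized tags with DEX at the 935 sites called in all 9 DEX libraries, hypoxia minus normoxia on the x axis and 24 h minus 6 h on the y axis. Grey points are sites and coloured points with SE bars are the 3 leading sites. Parva (1.48) and Tead1 (0.75) lie to the right near the horizontal line, and Stk4 lies at lower left (-1.15 and -0.79).

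The input signal under the peaks was small in all conditions. At the Parva site the scaled input was 1.8 to 3.6 tags beside 168 to 323 receptor tags in the hypoxia DEX libraries, and 0.8 to 1.0 beside 72 to 143 in the normoxia DEX libraries. At the Stk4 site it was 0.3 to 2.1 tags beside 62 to 136 receptor tags in hypoxia, and 0.8 to 1.0 beside 195 to 385 in normoxia. At the Tead1 site it was 0.3 to 1.6 tags beside 88 to 187 receptor tags in hypoxia, and 0.4 to 0.5 beside 69 to 121 in normoxia. The input was thus at most 3.6 tags in any of these DEX libraries, while the receptor tags were at least 62. The deposited fold over input at Parva was 50.2 to 108 in hypoxia and 93.2 to 147 in normoxia with DEX, so it did not show the rise. It was 64.8 to 388 and 179 to 249 at Tead1, and 31.7 to 362 and 233 to 404 at Stk4, in the same order. A single input served each oxygen condition, so these ratios rest on few input tags.

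The chromosome 7 stretch that holds both genes runs from the end of Micalcl, across Parva and the 87668 bp between the genes, into the start of Tead1. It held 4 sites, all described above. No site was called in any of the 18 libraries over the 164707 bp between the leading Parva site and the intergenic site, which take in most of the Parva gene. The intergenic and Tead1 sites were 9598 bp apart. Just outside the stretch, the next sites were in Micalcl, 13349 bp to the left, and the weak site inside Tead1, 126171 bp to the right, both called in normoxia PBS replicate 1 only. At Stk4, the nearest site to the left was in Tomm34, 2989 bp from the Stk4 span and again called in that library only. To the right the next site was 267449 bp away, near Sdc4, and was called in 9 DEX and 2 PBS libraries.

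**Figure D3:**
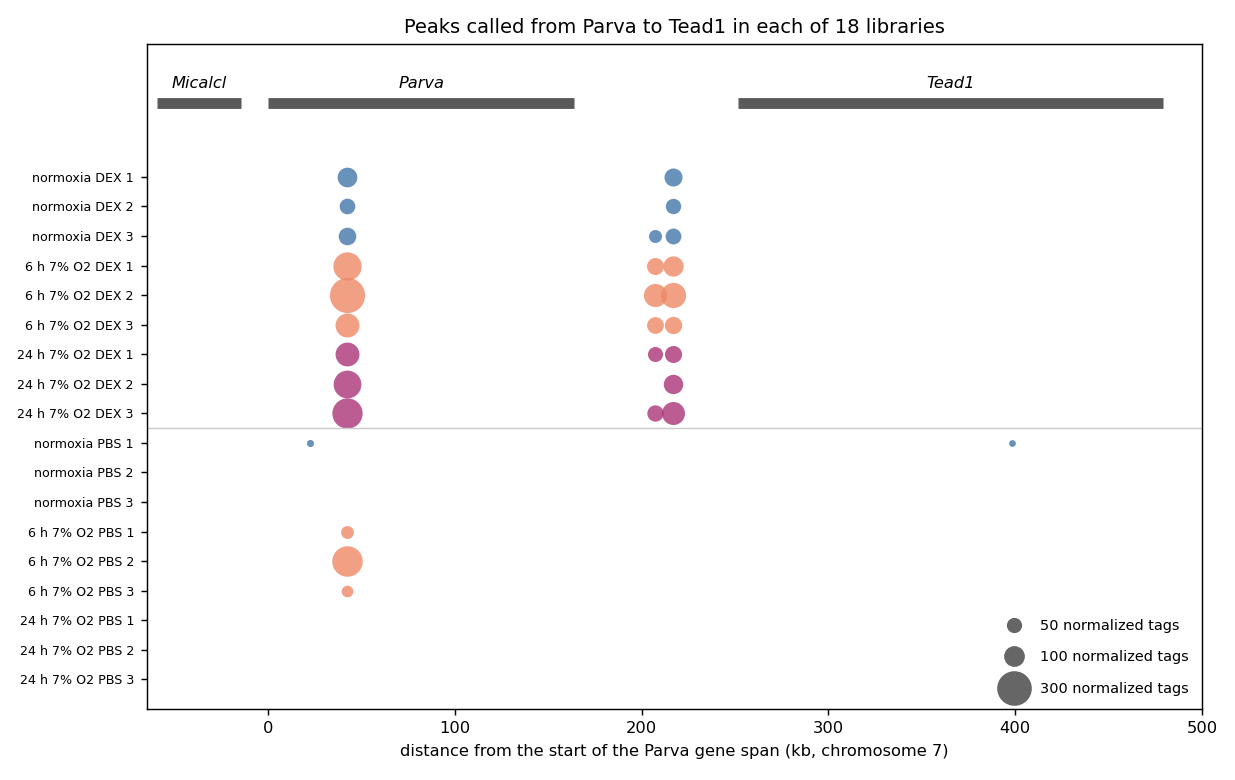
Peaks called along the stretch in each of the 18 libraries (rows, numbered by replicate), with distance from the start of the Parva span in kb on the x axis and circle area proportional to normalized tags. Grey bars are gene spans. The leading Parva site and the Tead1 site recur in all 9 DEX rows, the intergenic site is mostly in hypoxia rows, and with PBS the Parva site is present in the 3 rows of 6 h.

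The Parva and Tead1 sites, whose facing edges are 174523 bp apart, varied together from library to library. Across the 9 DEX libraries their centred log2 tags had a Pearson r of 0.97 and a Spearman rho of 1, and r was 0.87 after group means were removed. On log2 tags without centring r was 0.92. The points share libraries, depth and the choice of both sites for a rise in hypoxia, so these are descriptions. The Parva site carried 1.19, 1.04 and 1.24 times the tags of the Tead1 site in the 3 normoxia DEX libraries. The ratio was 1.95, 1.95 and 1.91 after 6 h and 1.96, 2.04 and 1.74 after 24 h. It was thus higher in each of the 6 hypoxia libraries than in any normoxia library, with the 2 hypoxia times overlapping, and a ratio within a library does not depend on scaling.

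The Stk4 site ran opposite to Parva (r = -0.79) and Tead1 (r = -0.82) across the 9 libraries. Parva and Tead1 were chosen as rises and Stk4 as a fall in these same values, which fixed that sign between the oxygen conditions. Within groups r was 0.02 with Parva and -0.31 with Tead1. The ratio of Parva to Stk4 tags was 0.43 ± 0.18 in normoxia, 1.87 ± 0.22 at 6 h and 3.54 ± 0.93 at 24 h of hypoxia (SD over 3 libraries). The 3 ranges did not overlap, at 0.291 to 0.636, 1.65 to 2.09 and 3.00 to 4.61.

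**Figure D4:**
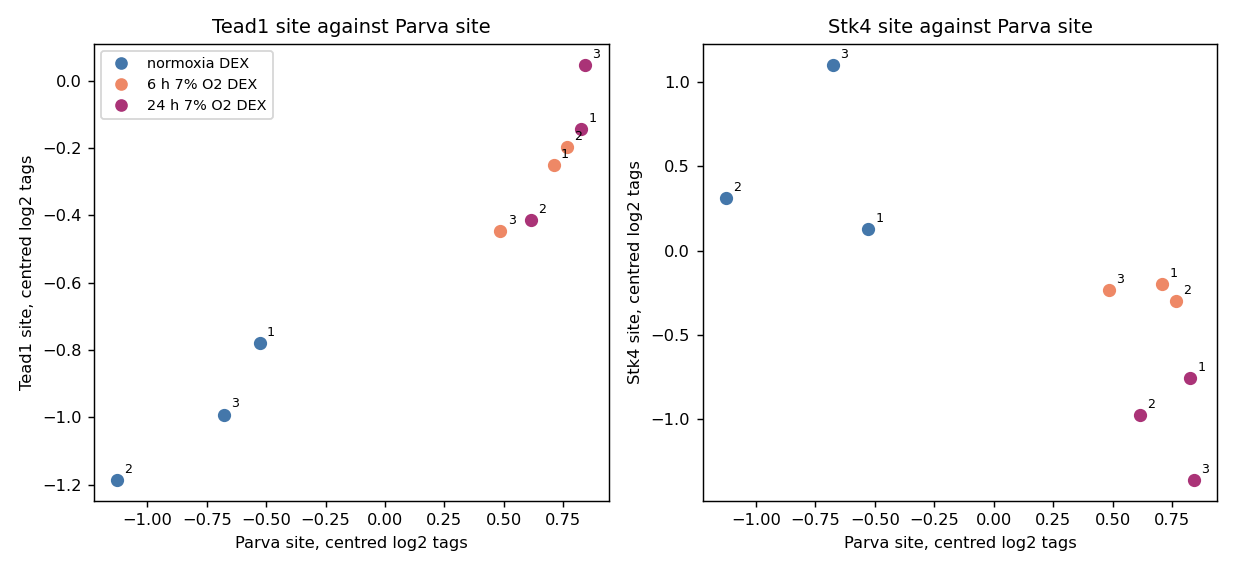
Centred log2 tags of the Tead1 site (left) and the Stk4 site (right) against the Parva site in the 9 DEX libraries, coloured by oxygen condition and numbered by replicate. Tead1 follows Parva within and between conditions (r = 0.97), and Stk4 separates the 3 conditions in the opposite direction (r = -0.79).

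Among the other 934 sites, the most like the Parva site in these 9 libraries was the Tead1 site, and the most like the Tead1 site was the Parva site. Both were chosen as rises in these same libraries, which favours a high r between them, so this ranking is a description. Next for Parva came sites whose nearest genes were Grik3 (a kainate receptor subunit, 70516 bp away, r = 0.96) and Jarid2 (a partner of Polycomb repressive complex 2, 321169 bp away, r = 0.95). The same sites came next for Tead1, with r = 0.93 and 0.91. Those most like the Stk4 site lay inside Sdsl (serine dehydratase-like, r = 0.96), Cdk17 (a cyclin-dependent kinase, r = 0.92) and Stimate (a regulator of STIM calcium sensors, r = 0.90). The median r over all sites was 0.13 for Parva, 0.15 for Tead1 and -0.10 for Stk4. The hypoxia differences of the Grik3 and Jarid2 sites were 0.53 and 0.40 on the log2 scale. Those of the Sdsl, Cdk17 and Stimate sites were -0.41, -1.11 and -0.41.

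The pathways of the 3 genes were looked at through gene lists. Of 30 Hippo pathway genes, 12 had a site within 50 kb, and beside the Tead1 and Stk4 sites 6 of 9 tested sites were called more often with DEX. Of 20 YAP and TEAD target genes, 8 had a site, and 4 of 6 tested sites were called more often. Of 33 genes of integrin-linked kinase, PINCH and parvin adhesions, 15 had a site, and beside the Parva sites 8 of 16 tested sites were called more often. No site of these lists was called less often with DEX, and of all 2563 sites tested only 1 was (0.039%). The medians of the share difference, DEX minus PBS, were 0.667 for the Hippo genes, 0.667 for the YAP and TEAD targets and 0.611 for the adhesion genes, against 0.556 over the 2563 sites, of which 55.3% were called more often. The Hippo and target lists share Amotl2. Sites with no PBS peak entered these counts through DEX peaks alone.

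Beside Stk4 and Tead1, the Hippo genes with such sites were Amotl2, Vgll4, Yap1 and Taok3. Vgll4, a competitor of YAP for TEAD proteins, had a site called in 9 DEX and 3 PBS libraries at 129 ± 41.7 normalized tags with DEX (SD, n = 9; exact Cochran-Mantel-Haenszel adjusted p = 0.0216). Yap1, the coactivator itself, had a site 3012 bp outside its span called in 8 DEX and 0 PBS libraries at 82.9 ± 18.9 tags (SD, n = 8; exact adjusted p = 0.00438). Amotl2, an angiomotin that holds YAP in the cytoplasm, had its strongest such site 46248 bp away, called in 9 DEX and 3 PBS libraries at 164 ± 38.5 tags (SD, n = 9; exact adjusted p = 0.0216). Taok3, a kinase upstream of MST1, had a site called in 5 DEX and 0 PBS libraries at 70.8 ± 14.8 tags (SD, n = 5; exact adjusted p = 0.0452). Of the YAP and TEAD targets, Nuak2, a kinase, had 2 sites called in 6 DEX and 0 PBS libraries each. A further Vgll4 site, called in 9 DEX and 1 PBS libraries, also passed (exact adjusted p = 0.00438). So did an Amotl2 site called in 6 DEX and 0 PBS libraries (exact adjusted p = 0.0138). This Amotl2 site and the Yap1, Taok3 and Nuak2 sites entered the test through DEX peaks alone. The adjusted p-values of the Nuak2 and Taok3 sites and of the strongest Vgll4 and Amotl2 sites were no lower than that of the intergenic Parva site, 0.0216. The call of that Parva site was lost without the detection filter (exact test, adjusted p = 0.0622).

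In the adhesion list the genes with such sites beside Parva were Tns1, Itgb3, Lims2 and Arhgef7. Tns1, which encodes tensin-1, a link between integrins and actin, had 9 tested sites, of which 4 passed as called more often with DEX and 5 did not. Of those that did not, 1 was called in 9 DEX and 9 PBS and 1 in 9 DEX and 8 PBS libraries. Its strongest site that passed was called in 9 DEX and 2 PBS libraries at 209 ± 34.0 normalized tags (SD, n = 9; exact adjusted p = 0.00859). Lims2, the PINCH-2 gene and thus a direct partner in the parvin complex, had a site called in 9 DEX and 0 PBS libraries at 109 ± 22.7 tags (SD, n = 9; exact adjusted p = 0.00307). Itgb3, an integrin subunit, had 1 called in 9 DEX and 3 PBS libraries at 148 ± 22.0 tags. Arhgef7, a partner of the parvins that activates small GTPases, had 1 called in 7 DEX and 0 PBS libraries at 81.2 ± 49.9 tags. The Lims2 and Arhgef7 sites entered the test through DEX peaks alone. The same holds for the passing Tns1 sites called in 9 DEX and 0 PBS and in 7 DEX and 0 PBS libraries. The Itgb3 site had an exact adjusted p of 0.0216, as the intergenic Parva site did. That Parva call was lost without the detection filter.

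In the hypoxia fit with DEX, the list sites of other genes were tested, and 0 of 3 Hippo sites (lowest limma adjusted p = 0.377) and 0 of 7 adhesion sites (0.307) passed. Over all 935 sites 3.1% passed as higher and 2.14% as lower, so 0 among so few sites says nothing about the pathways. The Hippo sites were the Vgll4 sites at 0.03 and 0.33 and the Amotl2 site at -0.09 on the log2 scale. Their median was 0.03, against 0.05 over all 935 sites. The 7 adhesion sites had a median of 0.09, Lims2 standing at 0.11 ± 0.13 and Itgb3 at 0.04 ± 0.16 (SE). Between 6 h and 24 h, 0 of these 3 Hippo sites (lowest limma adjusted p = 0.207) and 0 of these 7 adhesion sites (0.2) passed, with medians of -0.22 for Hippo and 0.01 for adhesion sites. Here 0.428% of all 935 sites passed as higher and 1.39% as lower, so the same limit holds.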

How the data were processed

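Reads were processed with Trimmomatic, BWA 0.7.17, SAMtools 1.10 and HOMER on mm10, per the submitters' processing notes. Peaks were called by the authors in each library alone against an input of the same oxygen condition, at 4-fold over input and over local signal and a Poisson p of 1e-04, per the file headers. The deposited signal is the normalized tag count per peak, scaled to 10000000 tags, and scaled input tags. The deposited counts are tags in the peak. Fold over input, a deposited ratio, came from the peak caller. The 3 inputs entered only through these values.

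Peaks overlapping by at least 1 bp were merged, and genes came from a GRCm38.p6 table, which holds spans and no exons. The highest peak in a site gave its value. Detection was tested with an exact Cochran-Mantel-Haenszel test (sites in at least 3 of 18 libraries) and Fisher's exact test (at least 2 of 9), written in Python 3.11.15. Tags were tested with limma 3.58.1 (R 4.3.3) with a trend, on log2 values, with no pseudocount because every value was above 0. P-values were adjusted by Benjamini-Hochberg over all sites, with a threshold of 0.05. The scripts were checked on simulated data. Hypoxia against normoxia with DEX chose the members and is described without a test. Genes named were the members, their neighbours, the 3 sites most like each leading site, and up to 6 genes of a list with a passing site. The members and lists were chosen with earlier results of these data known. Counting intervals cover counting error only. Hepatocyte gene Tf was not matched. Alternatives were overlap, a common threshold, filters, centring, a pseudocount of 10, covariate, block, left-out libraries and edgeR 4.0.16 on tags in peaks, the last chosen after seeing the data.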

Additional observations from a re-analysis of the deposited data

How the results depend on the processing

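The peak minimum of 50 tags, which was not scaled to depth, limits what a missing peak says. With a common threshold of 86.6 normalized tags in every library, 758 sites instead of 1419 differed in detection between DEX and PBS. No filter on detection gave 930. Under the same threshold the hypoxia comparison with DEX gave 27 instead of 49 sites, the 24 h against 6 h comparison 2 instead of 17, and the sites in all 18 libraries 7 of 9 instead of 60 of 62. Without centring the hypoxia comparison gave 9 sites and the 24 h against 6 h comparison 8, and with the share of tags in peaks as a covariate the hypoxia comparison gave 18. Centring the sites in all 18 libraries gave 36, of which 16 were higher and 20 lower with DEX. Leaving out 1 library at a time gave 1310 to 1608 sites for DEX against PBS detection, 0 to 0 for oxygen with PBS, 19 to 66 for hypoxia with DEX, 5 to 41 for 24 h against 6 h, and 58 to 97 for the sites in all 18 libraries. The lowest hypoxia count came without normoxia DEX replicate 2. The exact detection call of the intergenic Parva site had an adjusted p of 0.0622 with no filter. Under the common threshold that site was called in too few libraries to be tested. Over the alternatives that kept the leading sites, the hypoxia difference was 1.31 to 1.62 at Parva, 0.60 to 0.91 at Tead1 and -1.43 to -0.86 at Stk4. None of these leading sites was among those fitted under the common threshold, so the ranges do not cover it. Replicate numbers are shared by the groups. Equal-numbered DEX pairs had correlations of 0.006 to 0.506 and other pairs of -0.482 to 0.356, and 6 of 9 libraries correlated best with 1 of their own number, a hint of pairing. Since 7 of 9 equal-numbered pairs, not every pair, exceeded the required 0.1, the block was kept as an alternative. With the replicate number as a block, 921 sites differed in detection, 77 between hypoxia and normoxia with DEX and 51 between 24 h and 6 h. The block gave the intergenic Parva site an exact adjusted p of 0.0657 and the Stk4 site an adjusted p of 0.0509 between 24 h and 6 h.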
